A study of Petunia x hybrida with 10 samples.

Results

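The regions described here are the places on the petunia scaffolds where peaks of N1-methyladenosine (m1A) and peaks titled N6-methyladenosine (m6A) lay on the same bases. Peaks were merged within each mark wherever they shared 1 bp or more. A merged m6A region of 2 or more of the 4 m6A-titled libraries was kept if it shared 1 bp or more with a merged m1A region of 2 or more of the 6 m1A libraries. Of 1567 such m6A regions, 306 (19.5%) qualified and are called double-marked. They held 313 of the 12538 m1A regions of 2 or more libraries and lay on 226 scaffolds. The m1A peaks counted in double-marked regions below are those of these 313 m1A regions. Peaks of m1A regions of 1 library were left out of these counts, also where they lay in a double-marked region. The regions were chosen by presence in the lists and by overlap, so neither is evidence about them. The count fell to 181 when m1A air library 2, the longest list, was left out.

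The tissue was the corolla, the petals, of petunia cultivar Mitchell. The ethylene groups were treated for 16 h with ethylene, the gaseous hormone of flower senescence, at 2 µl/l, and the air groups were kept in air for 16 h. There were 3 ethylene and 3 air libraries of m1A, and 2 ethylene and 2 air libraries titled m6A. The labels do not tell whether replicates were different plants, and the p-values below then cover only the spread among these libraries, which may be technical. For the libraries titled m6A the stated protocol gives an antibody against m1A, as for the m1A set, so "m6A" below is a title and not a verified target.

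In m6A a methyl group sits on the amino group of adenosine, written by a methyltransferase complex and removed by ALKBH-type demethylases, and in plants the mark is known to gather towards the 3′ end of messenger RNA. In m1A the methyl group sits on the ring nitrogen that pairs with uracil, so the base carries a positive charge and cannot form a normal pair. m1A is best known from transfer RNA, where the TRMT6 and TRMT61A enzymes write it. No gene annotation was used here, so the regions are given by scaffold, position and strand (Petunia axillaris scaffolds, prefix Peaxi162) and not by gene.

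The m1A lists held 1013 to 17573 peaks and the m6A-titled lists 1451 to 1704. The files carry no read counts, so the depth behind each list is unknown. Each peak has a score from the authors' peak caller, whose scale is not stated and whose most common value is 3100. Scores are used below only to describe or to rank peaks within a list. The lists differed in their scores as a whole. Peaks at 3100 made up 2.23 and 4.48% of m6A ethylene lists 1 and 2, and 5.30 and 5.21% of m6A air lists 1 and 2. Scores given side by side for a region are therefore not a comparison of treatments.

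The best-supported double-marked region was Peaxi162Scf00338 184003 to 184496 on the plus strand, found in every one of the 10 libraries. Its 4 m6A peaks were identical, each 494 bp wide with a score of 3100. Its m1A peaks were 297, 235 and 494 bp wide in ethylene libraries 1, 2 and 3, and 362, 273 and 269 bp wide in air libraries 1, 2 and 3. The m1A scores were 3100, 3100 and 1717 after ethylene, and 3100 in each air library. All 6 m1A peaks covered the middle of the m6A interval, and merged they had exactly its bounds.

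Another 7 regions were found in 9 libraries, each with all 4 m6A libraries and 5 m1A libraries. Peaxi162Scf00045 494695 to 495666 (plus, 972 bp) held m1A peaks of 876 and 972 bp in ethylene libraries 1 and 3, and of 885, 863 and 184 bp in air libraries 1, 2 and 3. All 5 began at the 5′ edge of the m6A region and differed only in where they ended. Peaxi162Scf00044 1218768 to 1219195 (minus, 428 bp) held m1A peaks of 428 and 412 bp in ethylene libraries 1 and 2 and of 428 bp in each of the 3 air libraries. Its m6A scores, which are not compared between lists, were 65.8 and 699 after ethylene and 3100 and 2667 in air. The m6A peaks had identical bounds in all 4 libraries.

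In Peaxi162Scf00751 430855 to 431517 (plus, 663 bp) the m6A score was 3100 in all 4 libraries. The m1A peaks there were 359 and 663 bp wide in ethylene libraries 1 and 3, and 489, 315 and 606 bp wide in air libraries 1, 2 and 3. The m1A scores were 3100 and 426 after ethylene, against 740, 3100 and 776 in air. The values of the treatments overlapped in both widths and scores. Peaxi162Scf00950 340898 to 341767 (minus, 870 bp) also had m6A scores of 3100 in all 4 libraries, and there m1A ethylene library 3 gave 2 separate peaks, one at each edge, of 365 and 211 bp.

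The 3 narrower regions of 9 libraries were Peaxi162Scf00740 491210 to 491543 (minus, 334 bp), Peaxi162Scf00286 902747 to 903022 (plus, 276 bp) and Peaxi162Scf00350 554184 to 554351 (plus, 168 bp). Peaxi162Scf00286 was the only region of the 7 with m1A peaks in all 3 ethylene libraries, with scores of 3100, 144 and 1682, against 1163 and 3100 in air libraries 2 and 3. All 5 of its m1A peaks ended at the 3′ edge of the m6A region. In all 8 regions found in 9 or 10 libraries, the merged m1A and m6A regions had identical bounds. A merged m1A region is the union of its peaks, so it can only widen with more libraries, and these 8 were named for many m1A libraries. Over all pairs, m1A regions with identical bounds came from a mean of 2.85 libraries, and those within the m6A region from 2.43.

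**Figure D1:**
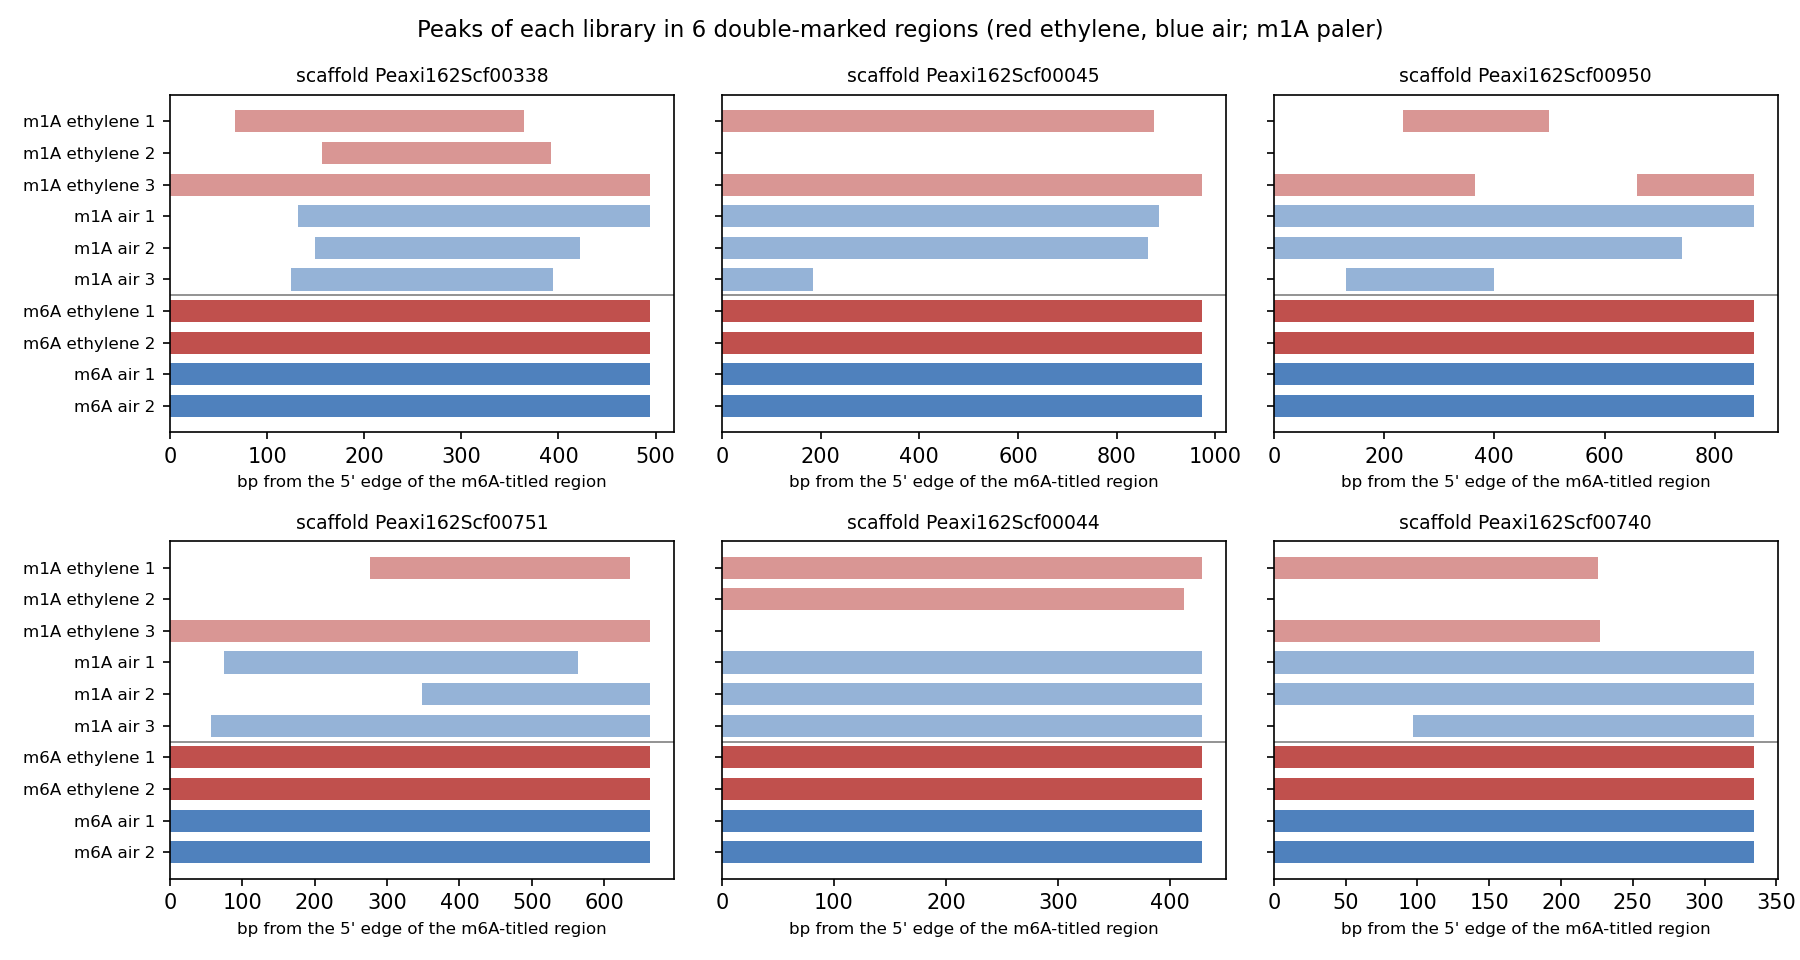
Peaks of each library (rows; red ethylene, blue air, m1A paler) in 6 double-marked regions, with bp from the 5′ edge of the m6A-titled region on the x axis. The 4 m6A peaks span each region from edge to edge, while the m1A peaks often cover a part of it, as in Peaxi162Scf00338, where 5 of the 6 m1A peaks are 235 to 362 bp wide in a 494 bp region.

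A further pair of wide regions was found in 8 libraries. Peaxi162Scf00166 1055923 to 1056981 (plus, 1059 bp) had m1A peaks of 712 bp in ethylene library 3 and of 866, 1059 and 668 bp in air libraries 1, 2 and 3. Peaxi162Scf00362 948773 to 949959 (minus, 1187 bp) held 2 separate m1A regions within 1 m6A region. Air libraries 1 and 2 each had a peak in both m1A regions, ethylene library 1 a peak in the 5′ one alone and ethylene library 3 a peak in the 3′ one alone. Such doubling was found in 7 of the 306 regions, whose m6A widths were 1059 to 1928 bp.

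The next comparison was of edges. Of the 313 pairs of overlapping m1A and m6A regions, 144 (46.0%) had identical bounds, to the base at both ends. How the authors set peak bounds is not given in the labels, and bounds recurred exactly across libraries and marks, so a shared edge is a property of the lists and is not shown to be the position of a mark. A further 123 (39.3%) shared exactly 1 edge, so that 267 (85.3%) shared at least 1. Where only 1 edge was shared, it was the 5′ edge in 56 pairs and the 3′ edge in 67. The remaining 46 pairs (14.7%) shared no edge, and in 7 of these the nearer edges were within 10 bp.

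Among pairs whose bounds differed, the m1A region was mostly the inner one. It lay within the m6A region in 154 of these 169 pairs (49.2% of all 313). The median m1A width there was 281.5 bp against a median m6A width of 464.5 bp. The reverse, an m6A region within a wider m1A region, was found in 8 pairs (2.56% of all 313). The m1A region ran past the 3′ edge in 3 pairs and past the 5′ edge in 4. Shared sequence ranged from 5 to 1175 bp with a median of 275 bp, which was a median of 98.3% of the m6A region and 100% of the m1A region.

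**Figure D2:**
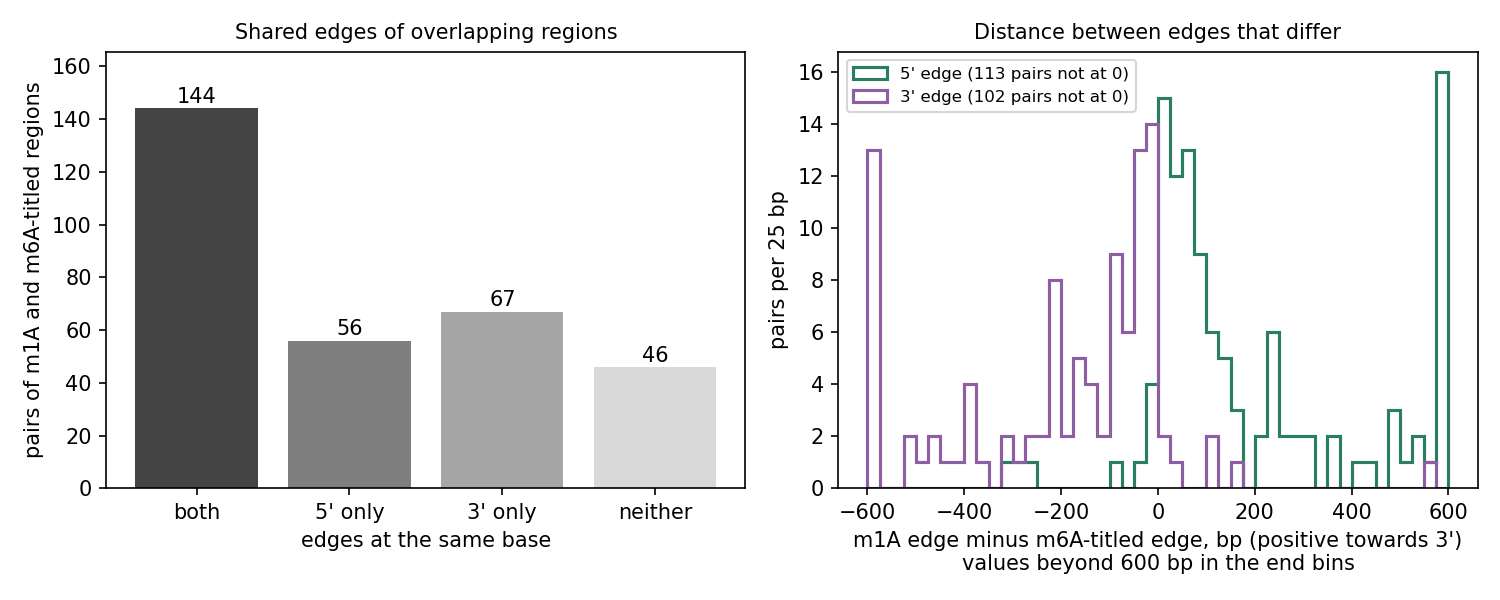
Left, number of overlapping m1A and m6A-titled region pairs by the edges that lie at the same base; right, distance from the m6A edge to the m1A edge for edges that differ, in 25 bp bins, positive towards 3′. Both edges coincided in 144 of 313 pairs, and where edges differed 104 of the m1A 5′ edges lay inside the m6A region and 9 outside, as did 95 and 7 of the 3′ edges.

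Shares by strand of the m6A region were close. On the plus strand 66 of 144 pairs (45.8%) shared both edges, as did 78 of 169 pairs (46.2%) on the minus strand. Of plus-strand pairs, 24 shared only the 5′ edge and 29 only the 3′ edge. Of minus-strand pairs, 32 and 38 did so.

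Single peaks shared edges less often than merged regions. Over the 24 combinations of an m1A and an m6A library, 2560 pairs of single peaks overlapped in double-marked regions, and 77.1% of them shared an edge (72.7 to 84.6% by combination). Both edges coincided in 25.6% (8.33 to 32.4%). Libraries of the same treatment shared an edge in 76.5% of 1272 pairs and libraries of different treatments in 77.7% of 1288. The corresponding shares with both edges were 25.9% and 25.3%.

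Edges also recurred within each mark. Between m6A libraries, 98.4% of 1127 overlapping peak pairs in double-marked regions shared an edge and 86.3% shared both. Between m1A libraries, 67.1% of 774 pairs shared an edge and 17.7% both. Outside the double-marked regions, among other regions of 2 or more libraries, 97.3% of m6A pairs and 70.6% of m1A pairs shared an edge. Overlapping m1A and m6A peaks not counted as pairs in double-marked regions shared an edge in 75.2% of 2618 pairs and both in 14.6%. By the rule, each of these pairs holds a peak from a region of fewer than 2 libraries. An m1A peak of this kind can lie in a double-marked region, so the shares do not compare places. These shares are given as descriptions, since the peak pairs reuse the same peaks and no test over them was run.

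By library, the share of m1A peaks that had an edge in common with an m6A peak was 73.8, 81.2 and 78.0% in ethylene libraries 1, 2 and 3, and 76.0, 77.8 and 76.5% in air libraries 1, 2 and 3. The air values lay inside the range of the ethylene values, with means of 77.7 ± 3.73% after ethylene and 76.8 ± 0.929% in air (SD, n = 3 each). The difference of 0.940 percentage points did not pass the test (exact two-sided permutation p = 0.7, adjusted p = 0.933), and its sign turned under several alternatives.

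In 35 of the 306 regions (11.4%) every peak of every library, of either mark, had the same start and end. The widest of these was 683 bp and the narrowest 5 bp, Peaxi162Scf00294 363447 to 363451 on the minus strand. This 5 bp interval was listed in all 4 m6A libraries. The scores, not compared between lists, were 578 and 132 after ethylene and 3100 and 3100 in air. It was also listed in all 3 m1A air libraries at a score of 3100 and in no m1A ethylene library. The m6A peaks alone had a single interval in 247 of the 306 double-marked regions (80.7%) and in 847 of the 1261 other m6A regions (67.2%). Among regions of all 4 m6A libraries these shares were 86.1% of 137 and 72.0% of 421.

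Peaks of the marks also differed in how much of the m6A region they filled. An m1A peak, or the sum of the peaks where a library had more than 1, covered a median of 64.4, 40.0 and 68.3% of the m6A region in ethylene libraries 1, 2 and 3. In air libraries 1, 2 and 3 the median was 73.6, 68.9 and 62.4%. The low value of ethylene library 2 came from 16 regions. The m6A peaks covered a median of 100% in each of the 4 libraries, and covered the region fully in 84.5 and 93.5% of cases after ethylene and in 90.8 and 94.0% in air. An m6A region is the union of these same m6A peaks, so the m6A values are set partly by the merging.

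Position from 5′ to 3′ was read on the scaffold from the strand column of the m6A-titled lists. Overlap was called without regard to strand, and each m1A peak was given the strand of its m6A region. It is therefore not shown that both marks lay on the same RNA. With identical bounds in 144 pairs, the m1A midpoint was at the centre of the m6A region in those 144. In the other 169 pairs it lay on the 3′ side of the centre in 91 (53.8%), against 78 on the 5′ side. The median relative position of these 169, with 0 at the 5′ edge and 1 at the 3′ edge, was 0.53, and the middle 50% lay between 0.33 and 0.66. Where no edge was shared, the midpoint lay on the 3′ side in 25 pairs and on the 5′ side in 21. Plus-strand pairs lay on the 3′ side in 40 cases and on the 5′ side in 38, and minus-strand pairs in 51 and 40.

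By library, the median position of m1A peaks was 0.50 in all 6. Of m1A peaks off the centre, 49.0, 53.8 and 53.8% lay on the 3′ side in ethylene libraries 1, 2 and 3, and 56.4, 53.9 and 50% in air libraries 1, 2 and 3. The treatments overlapped, with means of 52.2 ± 2.76% after ethylene and 53.4 ± 3.22% in air (SD, n = 3 each; exact two-sided permutation p = 0.5, adjusted p = 0.75 over 12 tests, smallest possible p 0.1). The direction of this small difference turned under several alternatives, so none is stated. This measure was added after the median was found to be 0.50 in every library.

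**Figure D3:**
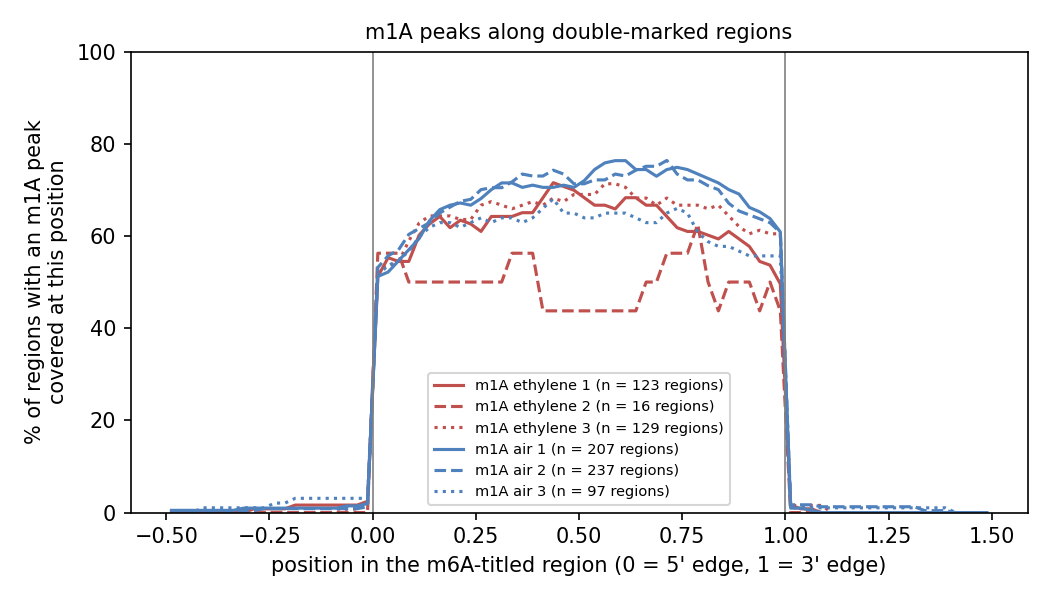
Percentage of double-marked regions with an m1A peak of the library (y) that the peak covers at each relative position in the m6A-titled region (x, 0 at the 5′ edge and 1 at the 3′ edge), 1 line per m1A library. In 5 libraries the centre is covered more often than either edge, while in ethylene library 2, with 16 regions, it is covered in 43.8%. A peak that fills most of a region must cover its centre, so the shape is set in part by peak width.

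The coverage of the m6A region by m1A peaks was then read along its length. The 10% of the region next to the 5′ edge was covered in 53.9, 54.7 and 54.8% of regions in ethylene libraries 1, 2 and 3 and in 53.7, 56.5 and 54.1% in air libraries 1, 2 and 3. At the 3′ edge the values were 53.9, 46.9 and 60.7% after ethylene and 64, 63.0 and 55.7% in air. The central 10% was covered in 68.9, 43.8 and 68.6% after ethylene and in 72.0, 72.0 and 64.4% in air. In all libraries but ethylene library 2, the centre was thus covered more often than either edge. A peak that lies inside the m6A region and fills most of it must cover the centre. This order is therefore set in part by peak width and is not evidence of a preferred position.

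The presence of each mark was then compared between treatments. An m1A peak was counted here if it belonged to an m1A region of 2 or more libraries. Double-marked regions held such a peak of ethylene libraries 1, 2 and 3 in 123, 16 and 129 cases, and of air libraries 1, 2 and 3 in 207, 237 and 97. As shares of the 306 these averaged 29.2 ± 20.8% after ethylene and 58.9 ± 24.1% in air (SD, n = 3 each). The ethylene values lay on both sides of the lowest air value, and the difference was -29.7 percentage points. Presence in the m1A lists was used to choose the regions, and 95 of the 306 qualified through air libraries alone against 4 through ethylene libraries alone, so this is a description with no test. The difference was -17.6 points without ethylene library 2 and -46.2 points without air library 3. The order of the libraries was that of list length, from 1013 peaks in ethylene library 2 to 17573 in air library 2, and the part of list length in the difference was not tested.

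The m1A peaks in double-marked regions were then taken as a share of the list of each library. This too rests on the presence that chose the regions and is a description. Only peaks of m1A regions of 2 or more libraries were counted, over the whole list. In double-marked regions they made up 1.67, 1.58 and 1.64% of the lists of ethylene libraries 1, 2 and 3. For air libraries 1, 2 and 3 the shares were 1.33, 1.38 and 1.45%. Every ethylene library lay above every air library, with means of 1.63 ± 0.0478% after ethylene and 1.39 ± 0.0581% in air (SD, n = 3 each). The difference was 0.242 percentage points. The share of each list in all m1A regions of 2 or more libraries is not given beside it. The difference is therefore not shown to be particular to double-marked regions. With only peaks scored no lower than the median of their list it was 0.0443 points, and 0.132 points without m6A air library 2. Air library 3, with 6760 peaks the list nearest in length to ethylene libraries 1 and 3, had the highest air share.

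**Figure D4:**
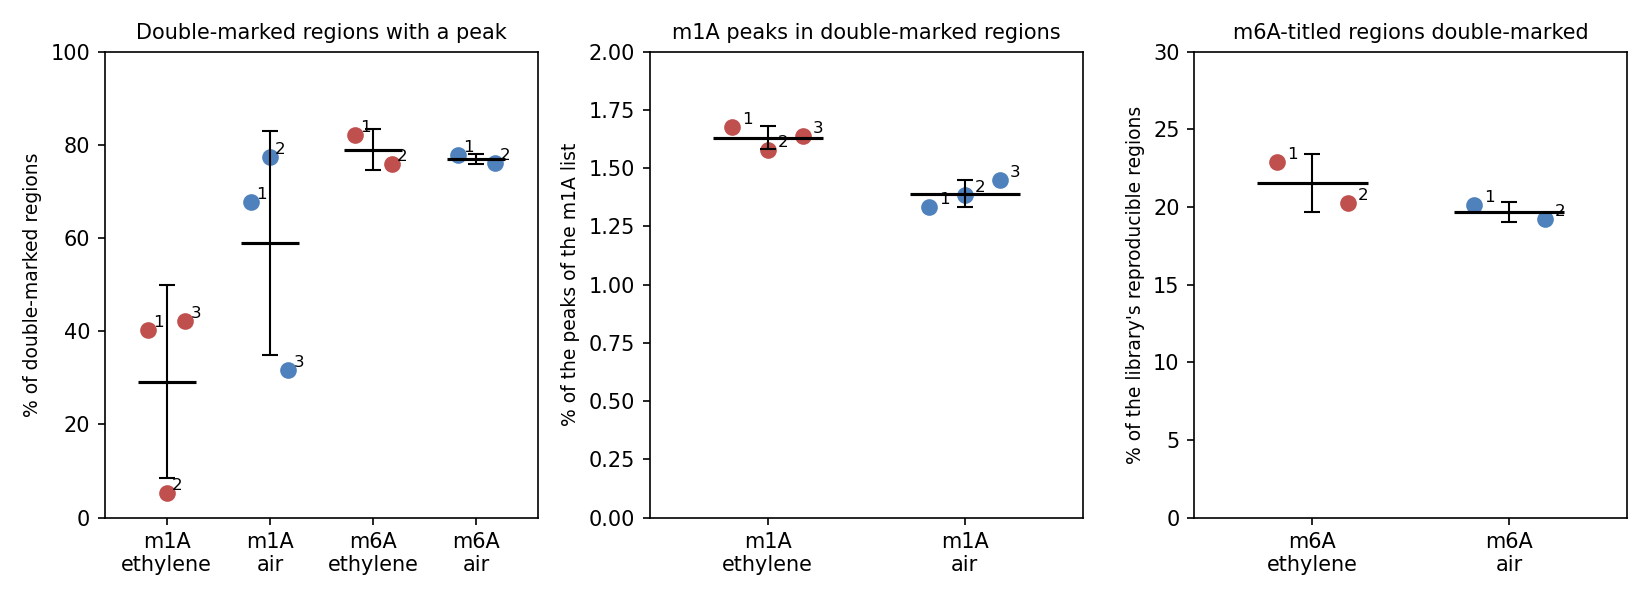
Left, percentage of the 306 double-marked regions with a peak of each library; middle, percentage of each m1A list that lies in them; right, percentage of each m6A-titled library's regions of 2 or more libraries that are double-marked. Points are libraries with their replicate number, bars the mean and SD. For m1A, only peaks of m1A regions of 2 or more libraries are counted. The middle panel ranges from 1.58 to 1.67% after ethylene and from 1.33 to 1.45% in air. In the right panel the values are 22.9 and 20.2% after ethylene and 20.1 and 19.2% in air. Presence in the lists chose the regions, so all panels are descriptions.

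The presence of m6A peaks did not separate by treatment. Ethylene libraries 1 and 2 had a peak in 251 and 232 of the 306 regions, and air libraries 1 and 2 in 238 and 233. The mean share was 78.9 ± 4.39% after ethylene and 77.0 ± 1.16% in air (SD, n = 2 each), and the values of the treatments overlapped. Presence in the m6A-titled lists was also used by the rule, so no test is given. Of the m6A regions of 2 or more libraries that a library held, 22.9 and 20.2% were double-marked in ethylene libraries 1 and 2, against 20.1 and 19.2% in air libraries 1 and 2. The means were 21.6 ± 1.86% after ethylene and 19.7 ± 0.654% in air, a difference of 1.91 percentage points (SD, n = 2 each). It was 0.461 points without m6A ethylene library 1.

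Most m1A regions in double-marked regions were seen under both treatments. Of the 313 m1A regions, 4 (1.28%) were seen in ethylene libraries only, against 3.05% of all 12538 m1A regions. In air libraries only there were 98 (31.3%, against 34.0% of all), and in both treatments 211 (67.4%, against 63.0%). All 3 air libraries and no ethylene library held 10 of the 313 (3.19%, against 3.89%), and all 3 ethylene libraries and no air library held 0 (against 0.104%). On the m6A side, 20 of the 306 regions (6.54%) were in both ethylene libraries only, against 5.36% of all 1567. In both air libraries only there were 15 (4.90%, against 8.81% of all), and 271 were in both treatments (88.6%, against 85.8%). All 4 libraries held 137 (44.8%, against 35.6%). These shares describe the lists, and no test over regions was run.

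The 4 regions with m1A after ethylene only all had it in ethylene libraries 1 and 3. Peaxi162Scf00016 735552 to 735923 (minus, 372 bp) had m1A scores of 3100 in both and m6A scores of 3100 in all 4 libraries, with identical bounds. Peaxi162Scf00153 900570 to 901425 (plus, 856 bp) had m1A scores of 3100 in both over its 3′ part, with m6A scores of 251 and 108 after ethylene against 118 and 43.3 in air. Peaxi162Scf00287 1595416 to 1596312 (minus, 897 bp) had m1A scores of 1403 and 2851, over 674 bp from its 5′ edge. Peaxi162Scf00015 234959 to 235217 (minus, 259 bp) was weak in m6A, with a score of 41.9 in ethylene library 2 and 16.7 in air library 2. In none of the 4 was m6A limited to ethylene libraries.

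Regions with m1A in air only numbered 95 of the 306. The one with the widest m6A region was Peaxi162Scf00145 195983 to 198871 (minus, 2889 bp), with m1A scores of 3100 in all 3 air libraries over 753 bp. Its m6A scores were 2413 and 3100 after ethylene and 3100 in both air libraries, so that the m6A peak was listed under both treatments while m1A was listed in air. The others named by the rule had m1A in 2 air libraries. Peaxi162Scf00344 1991506 to 1992549 (minus) had m1A scores of 305 and 552, Peaxi162Scf01164 173198 to 174243 (minus) 3100 and 3100, Peaxi162Scf00175 474486 to 475281 (plus) 3100 and 3100, and Peaxi162Scf00495 259731 to 260383 (minus) 3100 and 3100.

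Of the 20 regions with m6A after ethylene only, Peaxi162Scf00419 276028 to 276885 (plus, 858 bp) had m6A scores of 1306 and 604, and m1A peaks in 5 libraries of both treatments. Its m1A scores were 3100 and 3100 in ethylene libraries 1 and 3, against 3100, 3100 and 1989 in air. In Peaxi162Scf00863 8834 to 8931 (plus, 98 bp) all 6 peaks had the same bounds, with m6A scores of 308 and 221 and m1A scores of 446 and 3100 after ethylene against 3100 and 3100 in air. Peaxi162Scf01183 97290 to 97547, Peaxi162Scf00064 577210 to 577619 and Peaxi162Scf00047 1980083 to 1980238, all on the minus strand, had m6A scores of 14.5 to 112 and m1A in 1 ethylene and 3 air libraries each. In these 5 regions m1A was listed in air where m6A was not. The naming rule fixed this, since it took the regions with the most m1A libraries. Each had more m1A libraries than the 3 of ethylene, so air libraries had to be among them.

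Of the 15 regions with m6A in air only, Peaxi162Scf00131 1311417 to 1311544 (plus, 128 bp) had m6A scores of 1485 and 3100. Its m1A scores were 1481 and 3100 in ethylene libraries 1 and 3 against 3100 and 3100 in air libraries 2 and 3, and all 6 peaks had the same bounds. Peaxi162Scf00038 2037162 to 2037365 (minus, 204 bp) likewise had 6 peaks with the same bounds, with m6A scores of 257 and 180. Peaxi162Scf00263 1002477 to 1003673 and Peaxi162Scf00037 1518687 to 1518953 (both minus) had m1A in 5 and 4 libraries of both treatments. In Peaxi162Scf00105 632287 to 632788 (minus, 502 bp) both marks were listed in air alone, with m1A scores of 3100 in all 3 libraries and m6A scores of 18.5 and 77.8.

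Whether both marks followed the same treatment in the same region was then compared directly. Of the 20 regions with m6A after ethylene only, none had m1A after ethylene only, 7 had it in air only and 13 in both treatments. Over all 306 regions m1A was in ethylene libraries only in 4 (1.31%), in air libraries only in 95 (31.0%) and in both treatments in 207 (67.6%), so the counts of these 20 are near those of the whole set. Of the 15 with m6A in air only, 5 had m1A in air only, 10 in both treatments and none after ethylene only. m1A ethylene libraries 1, 2 and 3 had a peak in 6, 0 and 10 of the 20 regions of m6A after ethylene only, and in 7, 1 and 6 of the 15 of m6A in air only. For m1A air libraries 1, 2 and 3 these counts were 14, 16 and 8 of the 20, and 10, 15 and 4 of the 15.

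The difference between these presence shares averaged -4.44 ± 13.5 percentage points in m1A ethylene libraries and -1.11 ± 17.1 in m1A air libraries (SD, n = 3 each). The values of the treatments overlapped. Presence in the lists was used to choose the regions, so these values are a description with no test. With 20 and 15 regions and 3 libraries a group, no link between the treatments of the marks is stated.

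The double-marked regions were also set against the 1261 other m6A regions. Their median width was 370.5 bp against 271 bp, and width favours overlap, so the rule itself bears on this difference and it is given with no test. Median m6A peak widths were 368 and 382.5 bp in double-marked regions against 257 and 256 bp in the others in ethylene libraries 1 and 2. In air libraries 1 and 2 they were 381.5 and 360 bp against 270 and 271 bp. The difference averaged 109.5 bp and had the same sign in 4 of 4 libraries.

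By score, the m6A peaks of double-marked regions had the higher median percentile in all 4 lists, which gives the smallest p this design allows, above 0.05. The median percentile was 76.8 and 71.1 in double-marked regions against 58.1 and 54.5 in the others in ethylene libraries 1 and 2. In air libraries 1 and 2 it was 75.9 and 74.1 against 55.6 and 56.1. The difference averaged 18.4 percentile points, with the same sign in 4 of 4 libraries (exact sign-flip permutation p = 0.125, the smallest possible; adjusted p = 0.375). The 4 lists score many of the same regions, so their differences are not independent. Within regions of 5 to 164 bp the median difference was 6.59 points, and in the 3 wider groups it was 16.8, 16.2 and 17.2 points. A score of 3100 or more in all 4 libraries was found in 14 of 137 double-marked regions (10.2%) and in 14 of 421 others (3.33%) among those of all 4 libraries.

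**Figure D5:**
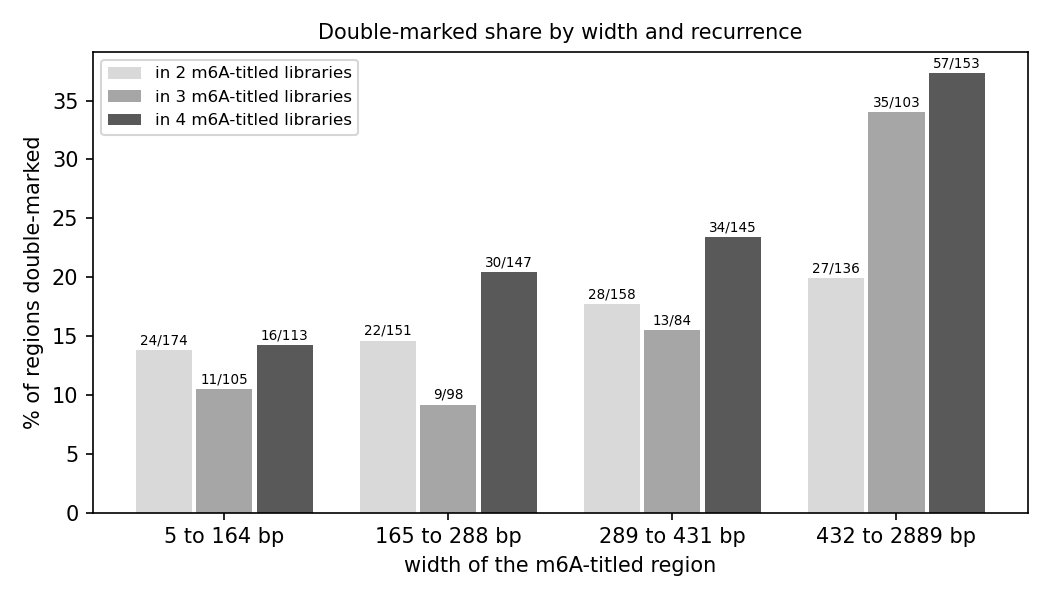
Percentage of m6A-titled regions that are double-marked (y) by region width in bp (x) and by the number of m6A-titled libraries with a peak (shade), with counts above the bars. The share is 13% over all regions of 5 to 164 bp and 30.4% over those of 432 to 2889 bp, and it is 37.3% among the widest regions of 4 libraries.

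The share of m6A regions that were double-marked was 24.6% among those of 4 libraries, 17.4% among those of 3 and 16.3% among those of 2. By width it was 13% from 5 to 164 bp, 15.4% in the next group, up to 288 bp, 19.4% from 289 to 431 bp and 30.4% from 432 to 2889 bp. In the narrowest group the share was 14.2% for regions of 4 libraries and 13.8% for regions of 2. In the widest it was 37.3 and 19.9%. By strand, 141 of 740 regions (19.1%) were double-marked on plus and 165 of 827 on minus.

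On the m1A side, peaks in double-marked regions had median widths of 240, 137.5 and 228.5 bp in ethylene libraries 1, 2 and 3, against 192, 168 and 200 bp in other m1A regions of 2 or more libraries. In air libraries 1, 2 and 3 the values were 227, 228 and 234 bp against 190, 191 and 198 bp. The difference averaged 26.0 bp and was positive in 5 of 6 libraries, ethylene library 2 being the exception. Overlap favours wide peaks here as well, so no test is given. The difference was 16.2 bp without m1A air library 1 and 37.1 bp without m1A ethylene library 2.

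The m1A scores did not pass the test. The median percentile fell on the tied score of 3100 in both sets in 4 of 6 libraries, where the difference was 0, and the mean difference was 8.70 percentile points (exact sign-flip permutation p = 0.5). By mean percentile, an alternative added after these ties were seen, the values in double-marked regions were 53.4, 41.2 and 52.4 in ethylene libraries 1, 2 and 3, against 48.3, 51.5 and 49.1 elsewhere. In air libraries 1, 2 and 3 they were 54.5, 54.9 and 48.2 against 48.2, 48.5 and 49.2. The mean difference was 1.65 points (exact sign-flip permutation p = 0.562). Of the 313 m1A regions, 130 (41.5%) were in 3 or more libraries, against 37.3% of all m1A regions, and 46 (14.7%) in 4 or more, against 13.3%. In 5 or more there were 15 (4.79%, against 4.04%), and in all 6 there was 1 (0.319%, against 0.479%).

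Double-marked regions were mostly scattered. A scaffold held 1 of them in 171 cases, 2 in 40, 3 in 9 and 4 or more in 6. Peaxi162Scf00038 held 7 over 916 kb, on both strands, among 15 m6A and 175 m1A regions of 2 or more libraries. Peaxi162Scf00129 held 5 over 861 kb. Peaxi162Scf00000, Peaxi162Scf00016, Peaxi162Scf00102 and Peaxi162Scf00362 held 4 each, over 431 to 2644 kb. Of 80 pairs of neighbouring double-marked regions on a scaffold, 6 were within 2000 bp of each other, 5 of these on the same strand, and 70 were more than 10000 bp apart.

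Close pairs on the same strand were Peaxi162Scf00652 158879 to 159729, Peaxi162Scf00528 574462 to 575378, Peaxi162Scf00152 227127 to 228330, Peaxi162Scf00064 577210 to 578911 and Peaxi162Scf00921 141441 to 144184, given as the span of both members. All 5 were on the minus strand.

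At the limits of the rule, the most shared sequence was 1337 bp in Peaxi162Scf00128 609528 to 611455 (plus), 1297 bp in Peaxi162Scf00036 375117 to 376793 (minus) and 1175 bp in Peaxi162Scf00033 2784409 to 2785583 (minus). In the first and second this was the sum over 2 m1A regions. Next were Peaxi162Scf00030 2201660 to 2202814 (minus), with 1155 bp, and Peaxi162Scf00362, described above, with 1130 bp. The least shared sequence was 5 bp, in Peaxi162Scf00294, where it was the whole of both regions. It was 43 bp in Peaxi162Scf00059 913241 to 913283 (plus) and in Peaxi162Scf00420 399622 to 399738 (minus), 44 bp in Peaxi162Scf00081 1576529 to 1576598 (plus) and 45 bp in Peaxi162Scf00152 228052 to 228330 (minus).

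Just outside, the nearest m1A region was 12 bp away from Peaxi162Scf00439 816094 to 816380 (minus), an m6A region of all 4 libraries. It was 82 bp away from Peaxi162Scf00152 1225733 to 1226101 and from Peaxi162Scf00858 327619 to 327753 (both plus), 88 bp from Peaxi162Scf00124 95439 to 95601 (plus) and 91 bp from Peaxi162Scf00001 4938107 to 4938299 (minus). Of the 1261 other m6A regions, 6 had an m1A region of 2 or more libraries within 100 bp and 47 within 500 bp.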

How the data were processed

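Per the labels' protocols, petunia corolla RNA was fragmented and immunoprecipitated before sequencing. The input library was not analysed here. The submitters' processing notes list MACS 1.4.2, STAR 2.5.1b, cutadapt 1.9.3 and CASAVA 1.4 with no role given, and human and mouse genome builds, whereas the files use Peaxi162 scaffolds. The authors deposited 1 peak list per library, with a score per peak whose scale and filter no source used here gives. The m6A-titled lists also give a strand. Depth is unknown, so no interval that needs it is given.

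Peak starts, counted from 0 in the files, were written from 1. Merging, overlap and exact permutation tests over libraries used Python 3.11.15, numpy 2.4.6 and scipy 1.17.1, and were tested on simulated lists. Comparisons between treatments exchanged labels over libraries, which leaves the choice of regions as it is. Comparisons with other regions flipped signs of within-library differences, although the libraries share regions. Adjusted p-values are Benjamini-Hochberg over 12 tests. Those on presence, list shares and widths are printed as values only, since the choice of regions acts on them. Libraries were grouped by title. Alternatives were another overlap minimum, a score minimum, m1A in 3 or more libraries, leaving out each library and a replicate block.

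The regions, lists and tests were chosen with earlier results of these data known. Regions were named by fixed rules: up to 10 in all 4 m6A libraries with the most m1A libraries, up to 5 in each class of 1 treatment, up to 10 with identical bounds, those with the most and least shared bp, the 5 nearest outside, and scaffolds with 4 or more. Of the 10 with identical bounds, 9 are among the first 10 named and the last is Peaxi162Scf00027 501313 to 501702.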

Additional observations from a re-analysis of the deposited data

How the results depend on the processing

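Of 180 alternative values, 19 turned the direction, 3 were counts moved by over 1.5 times, 1 passed the threshold and 157 did none of these. In 151 the smallest possible p was not under 0.05, so no call could be made or lost there, and 16 had a test that could pass it. The number of double-marked regions was 114 with peaks at or above the median score of their list and 129 with m1A regions of 3 or more libraries. It was 306 when 50% of the shorter region had to be shared, and 181 to 303 with each library left out, lowest without m1A air library 2. The m1A width difference, on which the rule acts, was 35.3 bp with peaks at or above the median score and 16.2 to 37.1 bp with each library left out. The ethylene to air difference in shared edges was 0.940 percentage points. It was -3.23 with peaks at or above the median score, -3.20 with m1A regions of 3 or more libraries, -0.123 with edges within 10 bp, and -1.20 to 3.21 with each library left out. The difference in off-centre peaks on the 3′ side, -1.23 points, was 2.82 with peaks at or above the median score, 0.517 within each m6A peak and -4.10 to 1.96 with each library left out. With each library left out, the m6A presence difference was -0.620 to 2.72 points and the m1A percentile difference -0.192 to 12.3. With each m1A library left out, the difference of presence shares by m6A class was -23.3 to 4.07 points. It was not run without an m6A library, since both libraries of a treatment define these classes. The cause of these moves was not tested.

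Same-numbered libraries were not treated as paired. Over the 306 regions, deviations from the group mean correlated at -0.0159, 0.0677 and 0.0917 for m1A numbers 1, 2 and 3. Between m1A libraries of different numbers the values were -0.123 to 0.0625. For both m6A numbers the value was -0.0233, which is 1 value, since deviations mirror each other with 2 libraries a group. These values do not settle whether the numbers were paired by design. In the replicate block, with labels exchanged within a number, the shared edge difference was 0.940 points (exact permutation p = 0.75). The smallest p of the block is 0.25 for m1A and 0.5 for m6A, so it could change no call. Depth is unknown, so list length and detection cannot be told apart.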

Other observations

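Overlap of the marks was wider than the rule shows when presence in a single library is allowed. Another 432 of the 1567 m6A regions of 2 or more libraries (27.6%) overlapped an m1A region seen in 1 library only, so that 738 (47.1%) overlapped some m1A region. Of 1713 m6A regions seen in 1 library, 265 (15.5%) overlapped an m1A region of 2 or more libraries.

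The number of m1A libraries is given here by the number of m6A libraries, with no test. Of the 137 in all 4 m6A libraries, 74 had m1A in 2 libraries, 40 in 3, 15 in 4, 7 in 5 and 1 in all 6. Of the 101 in 2 m6A libraries, the counts were 61, 26, 10, 4 and 0. Of the 68 in 3 m6A libraries they were 38, 19, 8, 3 and 0. All peaks of either mark in a region came from a median of 6 of the 10 libraries.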
